A study of Mus musculus with 9 samples.

Results

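The E-box is the short DNA motif CANNTG, and 8 genes whose proteins bind it, or hold back proteins that do, were followed in virus-specific memory T cells of the mouse. They are the Id genes Id2 and Id3, the E-protein genes Tcf3, Tcf4 and Tcf12, the Zeb genes Zeb1 and Zeb2, and the Snail family gene Snai3. They were chosen by name, with earlier results of these data known. All 8 were among the 48663 named entries of the deposited count table and among the 15738 genes kept by the filter on low counts. Memory T cells had been sorted from spleen with peptide-MHC tetramers 30 days after the mice were given lymphocytic choriomeningitis virus (LCMV), strain Armstrong, which causes an acute infection. CD4 ThpokAD cells bound the class II tetramer GP66:I-Ab and came from Ox40-Cre+ Thpokfl/fl mice, CD8 control cells bound the class I tetramer GP33:H-2Db and came from Ox40-Cre- mice, and CD4 control cells bound GP66:I-Ab and came from Ox40-Cre- mice. Each group had 3 libraries. Thpok, encoded by Zbtb7b, is the zinc finger factor that holds T cells in the CD4 helper lineage, and Ox40-Cre acts from the locus of Ox40 (Tnfrsf4), a receptor that T cells show after activation. Cre was present only in the ThpokAD mice, so effects of Cre and of losing Thpok cannot be told apart, and lineage, peptide and tetramer class cannot be told apart between CD8 control and CD4 control. The labels give neither the age of the mice nor whether each library had its own animal, and the p-values thus rest on the spread of these libraries alone, which may be technical.

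E proteins bind E-boxes as dimers and set much of the gene program of lymphocytes. Tcf3 encodes E12 and E47 (together E2A), Tcf12 encodes HEB, and Tcf4 encodes E2-2, which is best known as the defining factor of plasmacytoid dendritic cells. Id proteins have the dimerisation domain but no DNA-binding region, so they pair with E proteins and keep them off DNA. In T cells Id2 is known to promote effector and cytotoxic differentiation, and Id3 is tied to long-lived memory and follicular helper cells. Zeb and Snail proteins are zinc finger repressors of E-box sites. Zeb2 works with the T-box factor T-bet in terminally differentiated effector cells, Zeb1 has been tied to memory, and Snai3, a little-studied Snail factor, is expressed in lymphoid cells and muscle. The gene symbols Tcf3, Tcf4 and Tcf12 are unrelated to Tcf7, which encodes the Wnt pathway factor Tcf1.

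Upstream sequence was examined for E-boxes because E proteins, Zeb factors and Snail factors bind the same motif, and because every CD4 control library lay below all others for Id2, Tcf3 and Zeb2. RefSeq promoter windows (build GRCm38.p6) were at hand for 5 of the members, Id2, Id3, Tcf3, Tcf12 and Zeb2, and the 250 bases before each start were searched for CANNTG, which reads the same on both strands. Of 32851 such windows over all genes, 66.2% held a CANNTG, 13% the E-protein type CAGCTG and 17.2% CACCTG or CAGGTG, the type bound by Zeb and Snail factors; the last 3 motifs are all cases of CANNTG. The stretches outside annotated exons are given for Id2 (CAGCTG beginning 196 bases before the start), Tcf3 (CACTTG beginning 54 bases before the start) and the most upstream start of Zeb2 (no CANNTG), with each CANNTG in capitals and the strand of the gene, minus in all 3 cases. They lie at chr12:25096254-25096342, chr10:80433648-80433885 and chr2:45117443-45117692. The Id2 stretch lies inside the GENCODE span of the gene (chr12:25093799-25097140). It is thus upstream of the RefSeq start used, but not of the whole gene. The Tcf3 and Zeb2 stretches lie upstream of the GENCODE spans of their genes.
Id2: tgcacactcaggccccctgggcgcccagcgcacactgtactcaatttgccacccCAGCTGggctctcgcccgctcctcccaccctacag
Tcf3: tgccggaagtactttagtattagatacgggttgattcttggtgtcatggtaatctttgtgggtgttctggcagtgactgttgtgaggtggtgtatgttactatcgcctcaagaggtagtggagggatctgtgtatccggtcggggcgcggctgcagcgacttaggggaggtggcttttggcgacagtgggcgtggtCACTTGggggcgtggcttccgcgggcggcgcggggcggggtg
Zeb2: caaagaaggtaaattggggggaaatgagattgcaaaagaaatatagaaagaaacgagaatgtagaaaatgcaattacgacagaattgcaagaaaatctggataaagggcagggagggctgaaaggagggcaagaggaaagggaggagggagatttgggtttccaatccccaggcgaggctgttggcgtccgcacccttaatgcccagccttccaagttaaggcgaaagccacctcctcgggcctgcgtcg
The Id3 window and the other 3 windows of Zeb2 also held no CANNTG, and of the 3 windows of Tcf12, 1 held CAGCTG and 1 another CANNTG. All 250 bases of the Id3 window lay in annotated exons. The same held for the Zeb2 windows at chr2:45113280-45113529 and chr2:45113254-45113503 and for the Tcf12 window without CANNTG. Of the Zeb2 window at chr2:45110278-45110527, 191 bases lay in exons. A match is only a match of letters, its absence says nothing on binding elsewhere, and gene counts do not show which start was used.

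The libraries held 18517118 to 20245185 counts in CD4 ThpokAD, 19850495 to 38981516 in CD8 control and 16664474 to 18357021 in CD4 control. Levels are read counts scaled to library size (CPM) after scaling of the libraries by TMM, a method that sets the bulk of genes level. The targeted gene Zbtb7b was at 0.698 to 0.875 CPM in CD4 ThpokAD, 18.8 to 24.0 CPM in CD8 control and 38.5 to 48.9 CPM in CD4 control. The T cell markers Cd3d, Cd3e, Cd3g, Cd247 and Lck together held 4478 to 4868 CPM in CD4 ThpokAD, 4405 to 5443 CPM in CD8 control and 4134 to 4227 CPM in CD4 control. Cd8a and Cd8b1 together held 90.8 to 123 CPM in CD4 ThpokAD, 2830 to 3832 CPM in CD8 control and 17.8 to 27.9 CPM in CD4 control. Genes were called at an adjusted p under 0.05 in the quasi-likelihood test of edgeR over all tested genes, with Benjamini-Hochberg adjustment, and the 3 comparisons share libraries. In bulk samples, fewer cells of a kind and less RNA per cell cannot be told apart.

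In CD4 memory cells that had lost Thpok, 3 of the 8 factors rose against CD4 control: Id2, Zeb2 and Snai3. No factor passed as lower. Over all tested genes 2.74% were called in this comparison, 1.81% as higher and 0.928% as lower. The libraries of both groups did not overlap for 6 of the 8 factors, 4 higher and 2 lower in CD4 ThpokAD, against 25.7% of all tested genes (13.2% higher, 12.5% lower). In CD8 control against CD4 control, 4 of the 8 rose (Id2, Tcf3, Zeb2 and Snai3) and Zeb1 fell, where 11.7% of all tested genes were called, 5.13% as higher and 6.55% as lower. Here 7 of the 8 did not overlap, 4 higher and 3 lower in CD8 control, against 33.9% of all tested genes (17.3% higher, 16.6% lower). Between CD4 ThpokAD and CD8 control, Id2 and Snai3 were lower in CD4 ThpokAD and the other 6 factors did not pass, where 6.54% of all tested genes were called, 4.63% as higher and 1.91% as lower. Only Id2, Tcf4 and Snai3 did not overlap between these 2 groups, Tcf4 being higher and the others lower in CD4 ThpokAD, against 27.1% of all tested genes (14.6% higher, 12.6% lower).

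**Figure D1:**
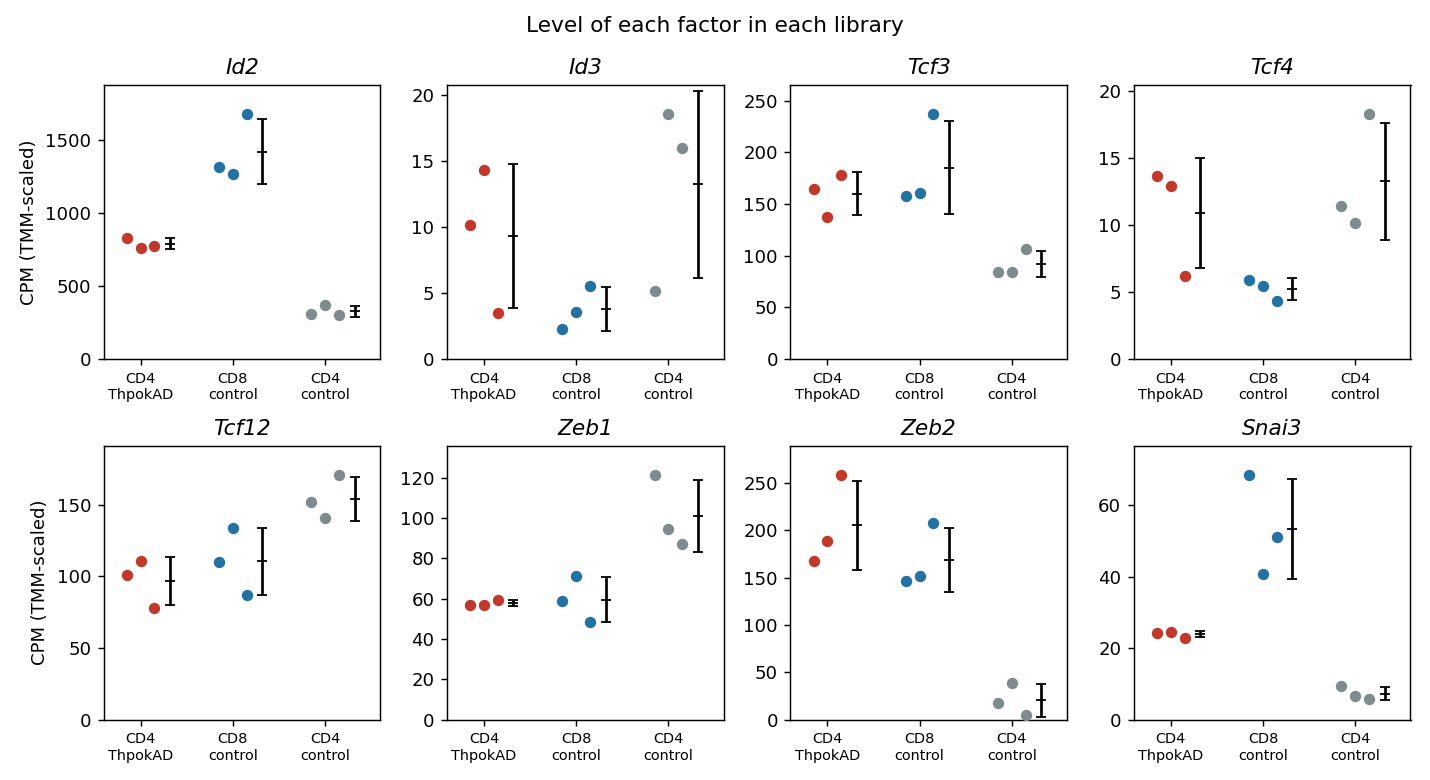
Level of each factor (vertical axes, TMM-scaled CPM from 0, own scale per gene) in the 3 libraries of each group (points), with the mean and SD beside them. Id2 and Snai3 stand in 3 separate tiers, Zeb2 is low only in CD4 control, and Zeb1 and Tcf12 are highest in CD4 control.

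Among the inhibitors, Id2 (chr12:25093799-25097140 in GRCm38 with GENCODE M21, as for all positions of genes) was at 833, 761 and 776 CPM in the CD4 ThpokAD libraries, at 1314, 1271 and 1678 CPM in the CD8 control libraries and at 312, 369 and 300 CPM in the CD4 control libraries. The 3 groups did not overlap: every ThpokAD library lay above the CD4 control libraries and below the CD8 control libraries. The 3 ThpokAD libraries were also close to each other, with a coefficient of variation of 4.79%. Id2 was 2.42-fold higher in CD4 ThpokAD than in CD4 control (log2 fold change 1.27, SE 0.133, edgeR adjusted p = 0.00169). It was 4.35-fold higher in CD8 control than in CD4 control (log2 2.12, SE 0.136, edgeR adjusted p = 2.71e-05). Against CD8 control, Id2 in CD4 ThpokAD fell by 0.85 on the log2 scale (SE 0.132, edgeR adjusted p = 0.00667). These 3 calls held in each of the 17 alternatives run, those that left out 1 library included. NK cells also express much Id2, and the summed NK markers, given with Zeb2, were higher in every CD4 ThpokAD and CD8 control library than in CD4 control. Of the 4 NK markers called higher in both comparisons, Klrb1c, Klra4 and Klre1 had means in the order of Id2. Klrb1c was at 69.1 ± 22.7 CPM in CD4 ThpokAD, 122 ± 5.86 CPM in CD8 control and 11.52 ± 5.47 CPM in CD4 control, and Klra4 at 2.41 ± 0.425 CPM in CD4 ThpokAD, 5.58 ± 0.512 CPM in CD8 control and 0 in all CD4 control libraries. The fourth, Gzma, had its highest mean in CD4 ThpokAD, and Klre1 overlapped between CD4 ThpokAD and CD8 control. Of the other tested NK markers, Tyrobp, Fcer1g and Cd244 had their lowest mean in CD8 control, at 17.1, 8.26 and 1.37 CPM. Their CD4 control means were 20.6, 19.5 and 3.57 CPM. The mean of Ncr1 kept the order of Id2, with some libraries of each group at 0. The list as a whole thus did not follow Id2, and the part of NK cells in the Id2 values was not tested.

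Id3 (chr4:136143497-136145755) was scarce in all groups. It had 10.1, 14.3 and 3.50 CPM in CD4 ThpokAD, 2.26, 3.59 and 5.52 CPM in the CD8 control libraries, against 5.16, 18.5 and 16.0 CPM in CD4 control. The libraries of a group differed by several-fold: CD4 control replicate 1 and ThpokAD replicate 3 lay among the CD8 control values, and the groups overlapped in all 3 comparisons. The log2 difference of CD4 ThpokAD from CD4 control was -0.50, with a 95% interval of -1.94 to 0.94 (edgeR adjusted p = 0.797). That of CD8 control from CD4 control was -1.80, with an interval of -3.28 to -0.32 (edgeR adjusted p = 0.118); DESeq2's Wald test called it, with an adjusted p of 0.0284. Per kilobase of annotated exon, the Id2 level was 324 ± 15.5 CPM per kb against 5.20 ± 3.05 CPM per kb for Id3 in CD4 ThpokAD (SD, n = 3), so that Id2 made up nearly all Id transcripts. The same held for CD8 control, at 583 ± 91.8 CPM per kb for Id2 and 2.12 ± 0.917 CPM per kb for Id3, and for CD4 control, at 134 ± 14.9 CPM per kb for Id2 and 7.38 ± 3.96 CPM per kb for Id3.

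The E-protein gene Tcf3 (chr10:80409514-80433647) was at 164, 137 and 178 CPM in CD4 ThpokAD, 158, 161 and 237 CPM in the CD8 control libraries, against 84.4, 84.1 and 106 CPM in CD4 control. All CD4 control libraries lay below all others, and the ThpokAD and CD8 control libraries overlapped. The rise in CD8 control against CD4 control was called (log2 fold change 1.02, SE 0.194, edgeR adjusted p = 0.0105). Leaving out CD4 control replicate 2 ended this call (adjusted p = 0.051). In CD4 ThpokAD the difference from CD4 control was 0.81 on the log2 scale (95% interval 0.37 to 1.24) and did not pass, at an edgeR adjusted p of 0.068. It passed by DESeq2's Wald test (0.00172), in edgeR with only the 6 libraries compared (0.0405) and without CD8 control replicate 3 (0.0318). The ThpokAD level differed from that of CD8 control by -0.21 on the log2 scale, with an interval of -0.65 to 0.22.

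Unlike Tcf3, Tcf12 (chr9:71842688-72111871), the gene of the partner protein HEB, was highest in CD4 control. It had 101, 111 and 78.0 CPM in CD4 ThpokAD, 110, 134 and 87.3 CPM in the CD8 control libraries, against 152, 141 and 171 CPM in CD4 control. The CD4 control libraries lay above all 6 others without overlap, as 12.5% of all tested genes did against CD4 ThpokAD and 16.6% against CD8 control. The log2 difference from CD4 control was -0.68 (SE 0.192) in CD4 ThpokAD and -0.48 (SE 0.192) in CD8 control, and neither passed in edgeR (adjusted p = 0.118 and 0.149). DESeq2's Wald test called the first (adjusted p = 0.0188).

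Tcf4 (chr18:69343356-69689079) was at 13.6, 12.9 and 6.21 CPM in CD4 ThpokAD, 5.90, 5.47 and 4.31 CPM in the CD8 control libraries, against 11.4, 10.2 and 18.2 CPM in CD4 control. CD8 control held the lowest values and did not overlap with either CD4 group, whereas CD4 ThpokAD and CD4 control overlapped. The log2 difference of CD8 control from CD4 control was -1.34 (95% interval -2.26 to -0.43, edgeR adjusted p = 0.0657), and that of CD4 ThpokAD from CD8 control was 1.06 (0.15 to 1.97, edgeR adjusted p = 0.17). The first passed by DESeq2's Wald test (adjusted p = 0.00686), in edgeR with bias-adjusted deviances (0.0425) and without ThpokAD replicate 3 (0.0443). Of the markers of plasmacytoid dendritic cells, where Tcf4 is abundant, Siglech was at 0 in 8 of 9 libraries and at 0.0418 CPM in the other. The 8 markers of that list together held 127 to 139 CPM in CD4 ThpokAD, 89.9 to 115 CPM in CD8 control and 112 to 134 CPM in CD4 control, mostly from Bst2, Pacsin1 and Irf8. Of the 5 tested markers Pacsin1 fell in CD8 control against CD4 control, with 3.08 to 15.3 CPM in CD8 control and 33.1 to 44.3 CPM in CD4 control, and no other was called in the 3 comparisons. The 9 markers of conventional dendritic cells together held 770 to 1633 CPM in CD4 ThpokAD. They held 220 to 344 CPM in CD8 control and 748 to 1405 CPM in CD4 control. Of the 8 tested, 3 were called lower in CD8 control than in CD4 control, and 3 higher in CD4 ThpokAD than in CD8 control. None was called in CD4 ThpokAD against CD4 control. The part of dendritic cells in the Tcf4 values was not tested.

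Adding the E-protein genes per kilobase of exon showed a different makeup in CD4 control. Tcf3 gave 85.5% ± 3.8 of the E-protein sum in CD4 ThpokAD, 85.7% ± 4.74 in CD8 control and 68.5% ± 1.05 in CD4 control (SD, n = 3). Tcf12 gave 13.7% ± 3.46 in CD4 ThpokAD, 13.9% ± 4.64 in CD8 control and 30.1% ± 1.22 in CD4 control. Tcf4 gave at most 1.76% in any library with these lengths. The sum itself was 46.2 ± 4.05 CPM per kb in CD4 ThpokAD, 53.1 ± 9.81 in CD8 control and 33.1 ± 4.198 in CD4 control. These shares depend on the length taken for each gene. With the longest annotated coding transcript in its place, an alternative chosen after seeing the data, the Tcf3 share was 76.4% ± 5.6 in CD4 ThpokAD, 76.9% ± 7.01 in CD8 control and 54.3% ± 1.17 in CD4 control. The Tcf12 share was then 21.8% ± 4.94 in CD4 ThpokAD, 22.3% ± 6.82 in CD8 control and 43% ± 1.49 in CD4 control, and the Tcf4 share at most 3.26%. CD4 control kept the lowest Tcf3 mean share and the highest Tcf12 mean share.

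**Figure D2:**
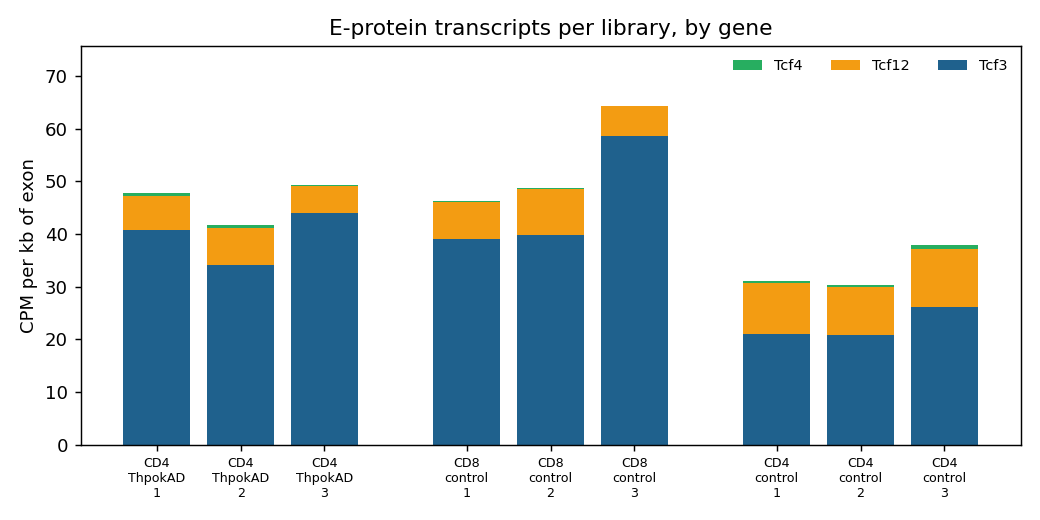
Stacked bars of E-protein transcript levels in each library (vertical axis, TMM-scaled CPM per kb of annotated exon), with Tcf3 at the bottom, Tcf12 above it and Tcf4 on top. The Tcf3 part is larger and the Tcf12 part smaller in all CD4 ThpokAD and CD8 control libraries than in the CD4 control libraries.

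The Zeb genes differed in opposite directions. Zeb2 (chr2:44983632-45117395) was at 168, 189 and 258 CPM in CD4 ThpokAD, 146, 152 and 208 CPM in the CD8 control libraries, against 17.7, 38.5 and 4.95 CPM in CD4 control. CD4 control was low in all libraries but uneven, with replicate 2 several-fold above replicate 3, and the other groups overlapped each other. Zeb2 was 10.04-fold higher in CD4 ThpokAD than in CD4 control (log2 fold change 3.33, SE 0.600, edgeR adjusted p = 0.0232). It was 8.26-fold higher in CD8 control than in CD4 control (log2 3.05, SE 0.593, edgeR adjusted p = 0.0115). The log2 difference of CD4 ThpokAD from CD8 control was 0.28, with a 95% interval of -0.95 to 1.51 (edgeR adjusted p = 0.841), which leaves room for a difference in either direction.

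The size of the Zeb2 rise in CD4 ThpokAD depended on which CD4 control library was included, with a log2 fold change of 4.18 without replicate 2 and of 2.86 without replicate 3. Its call did not hold without CD4 control replicate 1 (edgeR adjusted p = 0.103) or without ThpokAD replicate 1 (0.0626), 2 (0.0555) or 3 (0.0743). The call in CD8 control was lost without CD4 control replicate 1 (0.0534); without CD4 control replicate 2 its log2 fold change was 3.90. Zeb2 is abundant in myeloid and NK cells. The 12 myeloid markers together held 368 to 496 CPM in CD4 ThpokAD, 143 to 395 CPM in CD8 control and 199 to 361 CPM in CD4 control. Of these, Cd68 rose in CD4 ThpokAD against CD4 control (54.6, 84.4 and 44.0 CPM in CD4 ThpokAD, against 18.2, 22.4 and 26.8 CPM in CD4 control) and the other 11 were not called. None of the 12 was called in CD8 control against CD4 control, and Cd68, Cd14 and Csf1r were called higher in CD4 ThpokAD than in CD8 control. The 9 NK markers together held 1202 to 1626 CPM in CD4 ThpokAD, 432 to 821 CPM in CD8 control and 54.1 to 65.6 CPM in CD4 control, mostly from Gzma in CD4 ThpokAD and CD8 control, a gene that cytotoxic T cells also express. Of the 8 tested, 4 were called higher in each of both groups against CD4 control, and Fcer1g was called lower in CD8 control. The NK receptor Ncr1 was at 0, 2.19 and 3.18 CPM in CD4 ThpokAD, 0, 7.75 and 0 CPM in the CD8 control libraries and 0 in all CD4 control libraries. Klrb1c and Klre1 had counts in every library, and Klra4 in every CD4 ThpokAD and CD8 control library. The part of other cell types in the Zeb2 values was not tested. The antisense gene Zeb2os shares 653 exon bases with Zeb2, and the library kits did not mark strand.

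Zeb1 (chr18:5591860-5775467) was at 56.9, 57.0 and 59.4 CPM in CD4 ThpokAD, 59.1, 71.2 and 48.6 CPM in the CD8 control libraries, against 121, 94.5 and 87.1 CPM in CD4 control. The CD4 control libraries lay above all others, and the ThpokAD libraries fell within the range of CD8 control. Zeb1 fell by 0.76 on the log2 scale in CD8 control against CD4 control (SE 0.185, edgeR adjusted p = 0.0304). That call was lost without ThpokAD replicate 2 (0.0505), CD8 control replicate 1 (0.079) or 3 (0.0764) or CD4 control replicate 1 (0.108) or 2 (0.0705), and in edgeR with only the 6 libraries compared (0.0567). In CD4 ThpokAD the log2 difference from CD4 control was -0.80 (95% interval -1.22 to -0.38) and did not pass in edgeR, at an adjusted p of 0.059. It passed by DESeq2's Wald test (0.00181), with bias-adjusted deviances (0.0495), in edgeR with only the 6 libraries compared (0.0459) and without CD8 control replicate 2 (0.0495) or 3 (0.043). CD4 ThpokAD differed from CD8 control by -0.04, with an interval of -0.46 to 0.37. The gene Gm10125, on the other strand, shares 198 exon bases with Zeb1.

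Snai3 (chr8:122454208-122460733) was at 24.2, 24.5 and 23.0 CPM in CD4 ThpokAD, 68.4, 40.9 and 51.0 CPM in the CD8 control libraries, against 9.32, 6.63 and 5.94 CPM in CD4 control. As for Id2, the 3 groups did not overlap and CD4 ThpokAD lay between the controls. It rose 3.27-fold in CD4 ThpokAD against CD4 control (log2 fold change 1.71, SE 0.258, edgeR adjusted p = 0.011), and 7.32-fold in CD8 control against CD4 control (log2 2.87, SE 0.268, edgeR adjusted p = 2e-04). The first call ended without CD4 control replicate 2 (edgeR adjusted p = 0.0551) or 3 (0.0501), and the second held in each of the 17 alternatives run. Against CD8 control, Snai3 in CD4 ThpokAD fell by 1.16 on the log2 scale (SE 0.251, edgeR adjusted p = 0.0285). That call was lost without ThpokAD replicate 1, 2 or 3 (0.0895, 0.0871 and 0.0884) or CD8 control replicate 1 (0.0938) or 3 (0.0616).

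**Figure D3:**
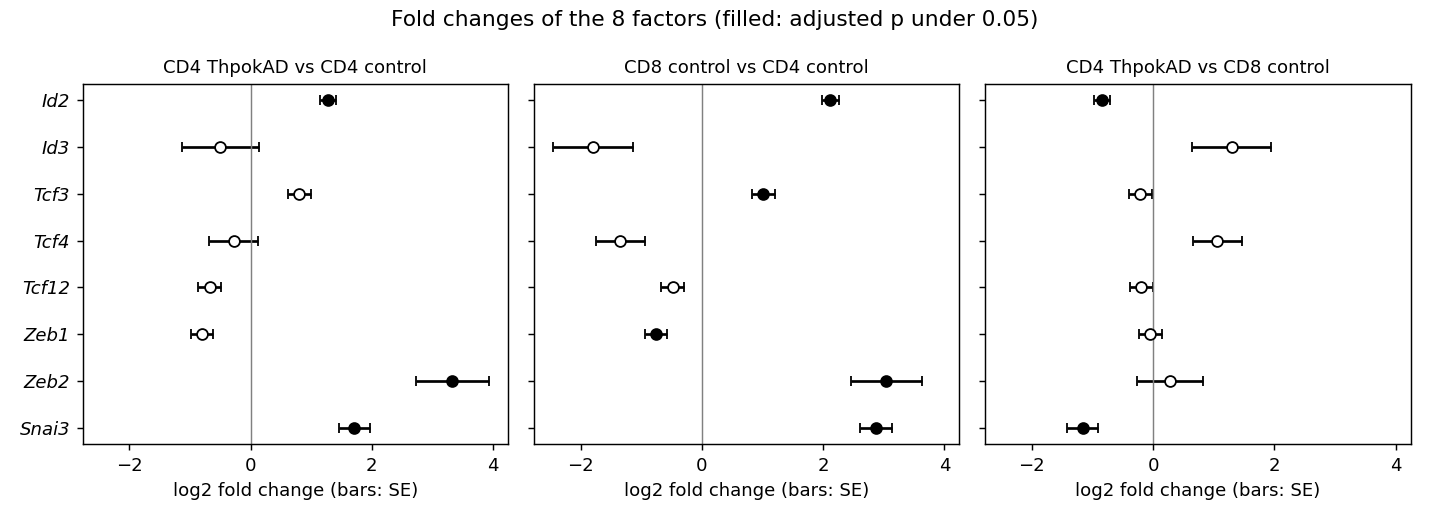
Log2 fold change of each factor (horizontal axis, bars of 1 SE) in the 3 comparisons, with filled points at an edgeR adjusted p under 0.05. Zeb2 has a log2 fold change above 3 in both comparisons against CD4 control and lies near 0 between CD4 ThpokAD and CD8 control, while Id2 and Snai3 are below 0 in that last panel.

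Ratios of counts within a library, which do not depend on how the libraries were scaled, set the paired factors side by side and were not tested. The log2 ratio of Zeb2 to Zeb1 counts was 1.56, 1.73 and 2.12 in CD4 ThpokAD, 1.30, 1.09 and 2.10 in CD8 control and -2.78, -1.29 and -4.14 in CD4 control. Zeb1 counts thus exceeded Zeb2 counts in every CD4 control library, and Zeb2 counts exceeded Zeb1 counts in the 6 others. The log2 ratio of Tcf3 to Tcf12 counts, added after the levels were seen, was 0.70, 0.31 and 1.19 in CD4 ThpokAD, 0.52, 0.27 and 1.44 in CD8 control and -0.84, -0.74 and -0.69 in CD4 control, again above 0 in CD4 ThpokAD and CD8 control and below 0 in CD4 control. These counts are not divided by length, and Tcf12 has 15529 exon bases against 4039 for Tcf3. The sign thus does not show which transcript was more abundant. Per kilobase, Tcf3 exceeded Tcf12 in every library, with 67.3% to 69.2% of the E-protein sum in CD4 control against 29% to 31.4% for Tcf12. The log2 ratio of Id2 to Id3 counts was 6.36, 5.73 and 7.79 in CD4 ThpokAD, 9.19, 8.47 and 8.25 in CD8 control and 5.92, 4.32 and 4.23 in CD4 control. Here CD4 control replicate 1 overlapped with CD4 ThpokAD, and CD8 control lay above both.

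The log2 ratio of summed Id to summed E-protein transcripts, per kilobase, was 2.87, 2.94 and 2.70 in CD4 ThpokAD, 3.54, 3.43 and 3.43 in CD8 control and 2.07, 2.42 and 1.80 in CD4 control. The groups did not overlap, with CD4 ThpokAD between the controls, and every library held more Id than E-protein transcript on this scale.

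**Figure D4:**
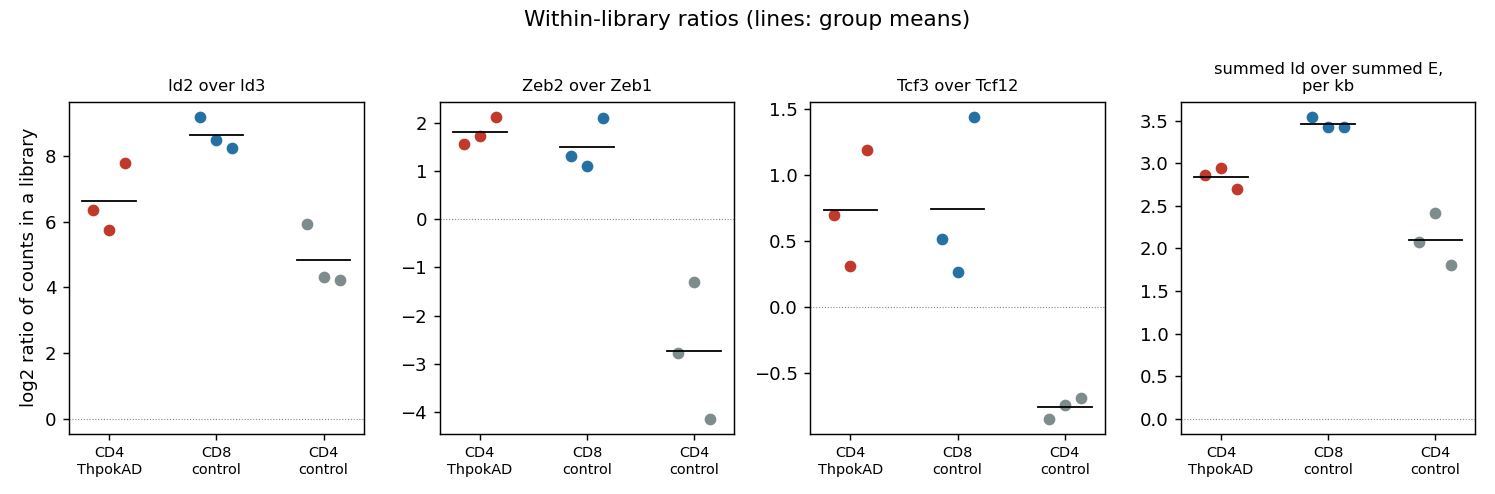
Log2 ratio of counts within each library (vertical axes, own scale per panel; points are the 3 libraries of each group, lines are group means, the dotted line marks equal counts). The Zeb2 to Zeb1 and Tcf3 to Tcf12 ratios are above 0 in CD4 ThpokAD and CD8 control and below 0 in CD4 control. Counts are not divided by gene length, and per kb Tcf3 exceeds Tcf12 in every library.

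Gene length was set beside these values, a description added after seeing the data, with the tested genes that had a length split into 4 bins of like size by exon bases. Tcf4, Tcf12, Zeb1 and Zeb2 stood in the bin of the longest genes. The median log2 fold change of that bin was -0.08 in CD4 ThpokAD against CD4 control and -0.12 in CD8 control against CD4 control, and the medians of the other bins lay between -0.04 and 0.11 in both comparisons. Zeb2, with 19942 exon bases, rose, whereas the log2 differences of Tcf4, Tcf12 and Zeb1 were below the medians of that longest bin in both comparisons.

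The genes whose levels were most like those of each factor were taken from 8156 tested genes whose mean level reached 10 CPM. Gm and Rik symbols, pseudogenes, antigen receptor segments and repeated or date-like symbols had been left out. Likeness was Pearson's r of log2 CPM over the 9 libraries, and much of each r comes from the differences between the 3 groups. For Zeb2 they were Klre1 (r = 0.981), an NK receptor gene of the NK marker list above, the T-box factor gene Eomes and the autophagy protease gene Atg4a, in that order. Klre1 was at 15.5, 27.4 and 36.4 CPM in CD4 ThpokAD, 43.9, 14.2 and 38.8 CPM in the CD8 control libraries, against 1.24, 2.92 and 0.0583 CPM in CD4 control. The order of the replicates was that of Zeb2 in CD4 ThpokAD and in CD4 control, where Klre1 had only 20, 51 and 1 counts. In CD8 control, replicate 1 was the highest for Klre1 and the lowest for Zeb2. Among the other NK markers with counts in CD4 control, Gzma, Tyrobp and Cd244 were also highest in replicate 2 of that group. Gzma was at 2.299, 7.83 and 5.186 CPM there, Tyrobp at 16.71, 24.8 and 20.39 CPM and Cd244 at 4.038, 4.401 and 2.273 CPM. Only Cd244 kept the full order of Zeb2. Fcer1g was highest in CD4 control replicate 3. Klrb1c was lowest in CD4 control replicate 2, at 14.8, 5.20 and 14.6 CPM in that group. For Snai3 they were Ctla2b (0.996), the D cyclin gene Ccnd3 (0.981) and Ctla2a (0.978), of which the Ctla2 genes encode inhibitors of cysteine proteases. Ctla2b had 30.4 ± 0.409 CPM in CD4 ThpokAD, 60.8 ± 8.90 CPM in CD8 control and 13.1 ± 2.14 CPM in CD4 control; Ctla2a and Ctla2b are near-identical copies, so their counts are uncertain. For Id2 they were Ric8a (0.989), Glipr2 (0.988) and the cell cycle kinase gene Cdk4 (0.985). Cdk4 had 165 ± 10.1 CPM in CD4 ThpokAD, 217 ± 12.1 CPM in CD8 control and 108 ± 8.73 CPM in CD4 control.

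For Tcf3 the most alike were Clic1 (0.986), the annexin gene Anxa6 (0.976) and Pfdn6 (0.973). For Tcf12 they were Vps54 (0.966), the kinase gene Map4k3 (0.955) and the ubiquitin ligase gene Cbl (0.954). For Zeb1 they were the utrophin gene Utrn (0.942), Tex2 (0.93) and the splicing factor gene Rbm25 (0.928). Cbl, which restrains T cell receptor signalling, had 54.98 ± 12.6 CPM in CD4 ThpokAD, 56.1 ± 19.8 CPM in CD8 control and 99.1 ± 2.167 CPM in CD4 control. Id3 and Tcf4 had a mean under 10 CPM and were left out here.

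Id1, Id4, Snai1, Snai2, Scrt1, Scrt2, Twist1, Twist2 and Hmga2 were all in the table and none of the 9 passed the filter on low counts. Snai2 had 99 counts in CD4 control, all in 1 library, and none in the other groups. Of 21 other E-box factors and their partners 16 were tested. In CD4 ThpokAD against CD4 control 1 rose, Bhlhe40, a repressor that supports cytokine production (edgeR adjusted p = 0.00641; 2420 ± 216 CPM in CD4 ThpokAD, 1365 ± 64.9 CPM in CD4 control), and none fell (median log2 fold change 0.09, against 0.00 over all tested genes, of which 1.81% rose and 0.928% fell). In CD8 control against CD4 control, where 5.13% of all tested genes rose and 6.55% fell, Tfap4 rose (4.05 ± 0.585 CPM in CD8 control, against 0.475 ± 0.0799 CPM in CD4 control, edgeR adjusted p = 0.021). Bhlhe40 fell there, to 140 ± 17.0 CPM in CD8 control (edgeR adjusted p = 2e-06), as did the Notch target Hey1, which had no count in CD8 control and 263 in CD4 control. Bhlhe40 and Hey1 were also higher in CD4 ThpokAD than in CD8 control, the only 2 of the 16 called there, where 4.63% of all tested genes were higher and 1.91% lower. The median log2 fold change of the 16 was -0.52 in CD8 control against CD4 control and 0.64 in CD4 ThpokAD against CD8 control.

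Of 17 tested cofactors of E proteins and Zeb factors, 1 was called in each comparison, where 2.74% of all tested genes were called in CD4 ThpokAD against CD4 control, 11.7% in CD8 control against CD4 control and 6.54% in CD4 ThpokAD against CD8 control. Tgfbr2, a receptor of TGF-beta, whose signals act through Smad partners of the Zeb proteins, fell in CD4 ThpokAD (415 ± 65.7 CPM, against 633 ± 34.3 CPM in CD4 control, edgeR adjusted p = 0.046). It also fell in CD8 control (418 ± 31.6 CPM, edgeR adjusted p = 0.0195). Between CD4 ThpokAD and CD8 control the histone demethylase gene Kdm1a was lower in CD4 ThpokAD (74.4 ± 2.71 CPM, against 113 ± 12.1 CPM in CD8 control, edgeR adjusted p = 0.0451). No other gene of this list was called in any of the 3 comparisons, and its median log2 fold changes were 0.00 in CD4 ThpokAD against CD4 control, -0.09 in CD8 control against CD4 control and 0.09 in CD4 ThpokAD against CD8 control.

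Of 21 genes reported as regulated by E proteins in lymphocytes, 18 were tested. In CD4 ThpokAD against CD4 control 4 fell and 1 rose (median log2 fold change -0.35, against 0.00 over all tested genes, of which 0.928% fell and 1.81% rose). Those that fell included Socs3, a brake on cytokine signals (246 ± 33.1 CPM in CD4 ThpokAD, 585 ± 29.99 CPM in CD4 control, edgeR adjusted p = 0.00145), the interleukin 7 receptor gene Il7r (315 ± 42.3 CPM in CD4 ThpokAD, 1108 ± 176 CPM in CD4 control, edgeR adjusted p = 0.000381) and Tcf7 (650 ± 33.6 CPM in CD4 ThpokAD, 1502 ± 113 CPM in CD4 control, edgeR adjusted p = 0.00468); the fourth was Lef1, a partner of Tcf1 (171 ± 27.3 CPM in CD4 ThpokAD, 276 ± 24.9 CPM in CD4 control, edgeR adjusted p = 0.046). Notch3, a receptor gene driven by E proteins in the thymus, had 571 counts in CD4 ThpokAD and none in CD4 control (3.77 to 20.5 CPM in CD4 ThpokAD, edgeR adjusted p = 0.0191). Notch3 also rose in CD8 control against CD4 control, with 355 counts (1.16 to 7.275 CPM in CD8 control, edgeR adjusted p = 0.0104). CD4 ThpokAD and CD8 control overlapped for it (edgeR adjusted p = 0.493). In CD8 control against CD4 control 8 fell and 2 rose (median -0.71, against 0.01 over all tested genes, of which 6.55% fell and 5.13% rose). Socs3 was at 41.4 ± 3.54 CPM and the homing receptor gene Ccr7 at 56.1 ± 19.2 CPM in CD8 control, against 585 ± 29.99 and 401 ± 60.4 CPM in CD4 control (edgeR adjusted p = 1.9e-06 and 0.000395). Cd4, which also defines the sorted lineages, fell too, and the cell cycle inhibitor gene Cdkn1a was at 0.822 ± 0.762 CPM in CD8 control against 62.6 ± 5.48 CPM in CD4 control (edgeR adjusted p = 0.000942). In CD4 ThpokAD against CD8 control 6 were higher and 2 lower (median 0.95, against -0.01 over all tested genes, of which 4.63% were higher and 1.91% lower). Of those 6, Cdkn1a was at 50.9 ± 4.28 CPM in CD4 ThpokAD (edgeR adjusted p = 0.00216).

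All 16 genes tied to Zeb2 or T-bet were tested. In CD4 ThpokAD against CD4 control 8 rose and 4 fell (median log2 fold change 1.08, against 0.00 over all tested genes, of which 1.81% rose and 0.928% fell). In CD8 control against CD4 control 9 rose and 3 fell (median 1.39, against 0.01 over all tested genes, of which 5.13% rose and 6.55% fell). In CD4 ThpokAD against CD8 control 3 were higher and 3 lower (median 0.03, against -0.01 over all tested genes, of which 4.63% were higher and 1.91% lower). The T-bet gene Tbx21 was at 532 to 691 CPM in CD4 ThpokAD, 486 to 667 CPM in CD8 control and 249 to 342 CPM in CD4 control. The fractalkine receptor gene Cx3cr1 was at 345 ± 61.7 CPM in CD4 ThpokAD, 231 ± 25.3 CPM in CD8 control and 7.20 ± 1.70 CPM in CD4 control, and rose in both comparisons with CD4 control (edgeR adjusted p = 3.35e-05 and 5.5e-06). The granzyme gene Gzmb, of the cytotoxic granules, was at 721 ± 88.2 CPM in CD4 ThpokAD, 301 ± 62.9 CPM in CD8 control and 45.2 ± 9.43 CPM in CD4 control, and was called in all 3 comparisons. The integrin gene Itgam, which effector T and NK cells carry and which is also a myeloid gene, was at 17.2 to 46.6 CPM in CD4 ThpokAD, 26.6 to 39.4 CPM in CD8 control and 0.124 to 2.80 CPM in CD4 control (edgeR adjusted p = 0.0284 for CD4 ThpokAD against CD4 control). Il7r, Tcf7 and Ccr7 stand both in this list and in that of E-protein regulated genes. The survival gene Bcl2 was lower in CD4 ThpokAD, at 100.1 ± 25.8 CPM, than in CD8 control, at 238 ± 25.3 CPM, and in CD4 control, at 217 ± 47.8 CPM (edgeR adjusted p = 0.0116 and 0.0334).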

How the data were processed

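RNA from sorted cells was made into libraries by low-input kits, none of which keeps strand, per the labels' protocols. Per the submitters' processing notes, STAR, HTSeq, Trimmomatic, DESeq2 and bcl2fastq 2.17 were used with mm10, without stated roles; which annotation HTSeq read, and with which strand setting, is not stated in the labels. The values used are the authors' deposited counts, whole numbers per gene symbol and not normalized. Groups follow the sample titles. After filterByExpr (minimum count 10, minimum total 15) and TMM scaling, edgeR (version 4.0.16, R version 4.3.3) was run as 1 quasi-likelihood fit of 9 libraries, checked on simulated data. An SE is the log2 fold change over the root of F. Alternatives were DESeq2 (version 1.42.0), limma-trend (limma version 3.58.1), other scalings and filters, a fit of 6 libraries, a replicate block and leaving out each library. Bias-adjusted deviances are those of edgeR's newer quasi-likelihood fit. Exon lengths come from GENCODE M21. Per-kilobase levels ignore isoform use. The 8 genes, the lists and the tests were chosen with earlier results of these data known. Named were the 8 genes, the 3 genes most like each, and called list members with the smallest adjusted p or that a sentence is about. 1 gene of the lists is counted but not reported by name here.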

Additional observations from a re-analysis of the deposited data

How the results depend on the processing

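Of 408 values of the 24 log2 fold changes under alternatives, 370 kept direction and side of the threshold, 21 lost a call and 14 gained one. The 3 that changed sign were uncalled throughout: Tcf4 in CD4 ThpokAD against CD4 control without CD4 control replicate 3 (0.018; leaving out 1 library gave -0.48 to 0.018), and, in CD4 ThpokAD against CD8 control, Zeb1 without CD8 control replicate 2 (0.089; -0.175 to 0.089) and Tcf3 without CD8 control replicate 3 (0.002; -0.33 to 0.002). The cause was not tested. Leaving out 1 library gave 2 to 5 called factors in CD4 ThpokAD against CD4 control, 3 to 6 in CD8 control against CD4 control and 1 to 2 in CD4 ThpokAD against CD8 control. The genes called overall then numbered 181 to 477, 1058 to 1667 and 589 to 788, against 431, 1839 and 1030 with all libraries. In CD4 ThpokAD against CD4 control, DESeq2's Wald test called 1456 genes and 6 factors, and fitting only the 6 libraries compared called 5 factors. DESeq2 called 3250 genes in CD8 control against CD4 control and 2385 in CD4 ThpokAD against CD8 control, where bias-adjusted deviances called 1639. The replicate block called 281 genes in CD4 ThpokAD against CD4 control and 684 in CD4 ThpokAD against CD8 control. Under it Zeb2 in CD4 ThpokAD (adjusted p = 0.0629) and Zeb1 in CD8 control (0.0513) no longer passed against CD4 control, and Tcf3 in CD4 ThpokAD did (0.0384); same-numbered libraries deviated together with r of -0.045 to 0.062, so the numbers were not taken as pairs. With lengths of the longest coding transcript, the log2 ratio of summed Id to summed E-protein transcripts was 2.53 in CD4 ThpokAD, 3.16 in CD8 control and 1.63 in CD4 control. Adding 1 count left all ratios within 1 SD. Id3 had 54 to 324 counts per library and Tcf4 113 to 313, so their values carry more counting error than those of Id2.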
